A study of Mus musculus with 3 samples.

Results

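The MHC class II pathway was described here over 3 mouse arrays through 9 genes: the chains H2-Aa, H2-Ab1 and H2-Eb1, the peptide editors H2-DMa and H2-DMb1, their modulator H2-Oa, the invariant chain Cd74, the regulator Ciita and the protease Ctss. Members were the probe sets whose platform annotation gives 1 of these symbols. Of the 9 genes, 8 had a probe set of their own, among 22180 genes measured in all. The Cd74 probe set also carries the symbol of the microRNA gene Mir5107 and is reported apart, outside every count. One array came from cultured FULA 1 cells, a mouse lung adenocarcinoma line grown in DMEM with 10% fetal bovine serum. The other arrays came from lung cells of FVB mice, an inbred strain, after an injection of saline in one group and of urethane in the other. Urethane is a carcinogen that gives lung tumours in mice; it was injected into the peritoneum 1 week before the lung was taken. The sources used here do not give the mouse strain behind FULA 1, how many mice each lung array stands for, or when the saline lung was taken. There was 1 array per group, so no replicate spread exists, no test was possible, and every value compares these arrays rather than the conditions.

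MHC class II molecules are cell-surface proteins of an alpha and a beta chain that show peptides from endosomes to CD4+ T cells. New chains bind the invariant chain, which is cut away in the endosome, in antigen-presenting cells largely by cathepsin S, before the H2-DM protein exchanges the last fragment for an antigen peptide. B cells and dendritic cells carry class II at all times, and alveolar type II cells of the lung also do. Most other cells make it only after interferon gamma induces the coactivator CIITA. CIITA binds no DNA itself but sits on the RFX, CREB and NF-Y factors that occupy the X and Y boxes of class II promoters.

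Promoter sequence was matched in RefSeq (GRCm38.p6, strain C57BL/6J; the FVB and FULA 1 alleles were not analysed here) for 9 of 11 genes searched, not for H2-Ab1 and Ciita. The window ran from 250 bases before to 50 after each start site. The stretches chosen hold the letters to which the class II factors are known to bind: in each, an X box core, written GNAAC, is followed after 20 to 30 bases by the Y box letters ATTGG; both are in capitals, all are 5′ to 3′ on the gene's strand, and the motifs were chosen after these sequences had been read.
H2-Aa: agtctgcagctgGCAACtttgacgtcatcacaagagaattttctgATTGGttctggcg
H2-Eb1: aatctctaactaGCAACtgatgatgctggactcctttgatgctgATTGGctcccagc
H2-DMb1: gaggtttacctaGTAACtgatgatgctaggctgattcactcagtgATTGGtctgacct
H2-Oa: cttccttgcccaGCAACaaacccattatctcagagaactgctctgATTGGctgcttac
H2-Eb2: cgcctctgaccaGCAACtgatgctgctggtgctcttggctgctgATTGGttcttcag
H2-Ob: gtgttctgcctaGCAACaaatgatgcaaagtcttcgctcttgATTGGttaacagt

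These stretches lie on chromosome 17, H2-Aa on the minus strand at chr17:34287859-34287916 and the others on the plus strand. H2-Eb1 is at chr17:34305764-34305820, H2-DMb1 at chr17:34153085-34153142 and H2-Oa at chr17:34092291-34092348. H2-Eb2 is at chr17:34325531-34325587 and H2-Ob at chr17:34238806-34238860. Searched on both strands, the pair in this order and spacing occurred in 1.91% of the 32851 promoter windows of the same length. Alone, the core occurred in 84.8% of windows and ATTGG in 37.4%. The core and ATTGG were 28 bases apart in H2-Aa, H2-DMb1 and H2-Oa, 27 in H2-Eb1 and H2-Eb2, and 25 in H2-Ob. A longer form, AAC followed after 2 bases by ATGATGC, which overlaps the core, was present in H2-Eb1, H2-DMb1, H2-Ob and H2-DMb2, and in 13 windows in all (0.0396%). The pair was not in either window of H2-DMa, nor in those of H2-DMb2 and Ctss, which says only that these letters are not in those windows. A match is a description of the letters and not evidence that a factor binds.

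**Figure D1:**
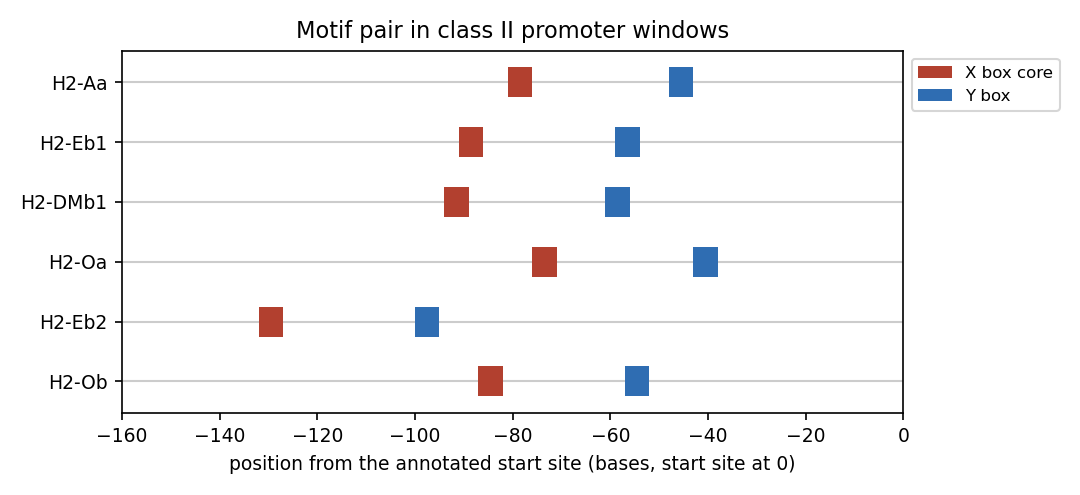
Position of the X box core (red) and the Y box letters (blue) in 6 class II promoter windows, in bases from the annotated start site. The core starts between positions -94 and -76 in H2-Aa, H2-Eb1, H2-DMb1, H2-Oa and H2-Ob, and at -132 in H2-Eb2.

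The Ctss window held the interferon-response letters GAAA followed after 2 bases by GAAA, shown because interferon gamma is known to induce Ctss and the class II pair was not in its window; they are in capitals. They occurred in 3.44% of all windows on either strand. The stretch is chr3:95526740-95526785, plus strand, and ends at the base before the start site.
Ctss: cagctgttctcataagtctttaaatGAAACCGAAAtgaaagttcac

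The deposited columns did not share a scale, with a median log2 value of 4.96 for FULA 1, 0.08 for the saline lung and 1.22 for the urethane lung. Values were therefore compared in a pair of ways: the percentile rank of a probe set among all 41345 on its own array, and a log2 value after quantile normalization of the 3 arrays, on which a difference of 1 is 2-fold. A gene was counted as higher or lower at 2-fold or more if the higher value reached the median of all gene values, 2.37. Shares of all genes so counted are out of the genes that reached it in that comparison. List counts are out of all genes measured in the list, also those that did not reach it. Background was marked by the 95th percentile of 1105 olfactory receptor genes, a family with little known transcription in lung: 1.96 (FULA 1), 2.46 (saline) and 2.44 (urethane). Markers were set against the labels. Sftpc, the surfactant protein C gene, had a percentile rank of 99.8 on both lungs and 53.5 on FULA 1. Krt8, a keratin of simple epithelia, stood at 99.7 on FULA 1.

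All 8 measured class II genes had lower normalized values on FULA 1 than on either lung, and the ranks gave the same order, as they must for genes with 1 probe set. As deposited, the direction was the opposite for all 8, on columns whose medians differed by the amounts above. A shift to a common median and a lowess curve, which could have turned a sign, kept the 8 lower. The quantiles of the FULA 1 array, an offset and the ranks did too, but could not have done otherwise. They rest on the same rank order within arrays, and each gene had 1 probe set of its own. Against the saline lung 5 of the 8 were at least 2-fold lower and 0 higher, where 22.0% of 13590 genes past the expression threshold were lower and 22.6% higher. Against the urethane lung 6 of 8 were lower and 0 higher, where 19.5% of 13264 genes were lower and 22.1% higher. Both comparisons share the FULA 1 array and are not independent. When a constant shift gave each array the same median, the count over all genes against the saline lung moved from 3073 higher and 2994 lower to 7058 and 1785, while 4 of the 8 members were lower by 2-fold (H2-Aa, H2-Ab1, H2-Eb1 and Ctss). Past the threshold were 7 of the 8, all but H2-DMb1.

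**Figure D2:**
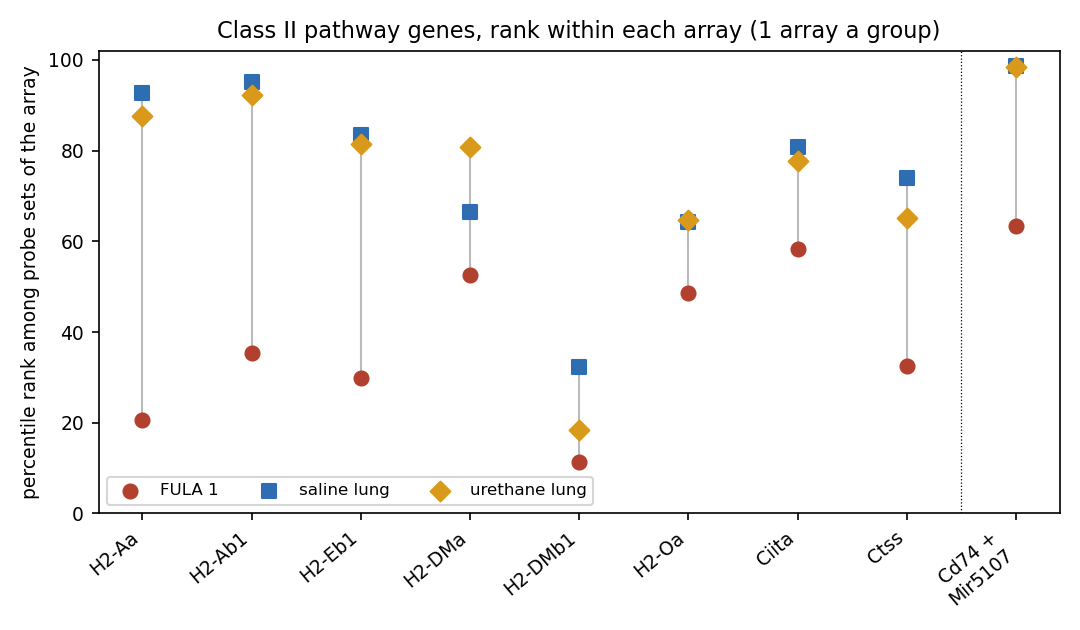
Percentile rank within each array (vertical axis, 0 to 100) of the 8 class II pathway genes and, right of the dotted line, of the probe set shared by Cd74 and Mir5107; each point is 1 array. The red FULA 1 point is the lowest in every column, at 11.3 to 58.4 for the 8 genes.

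Among the 8 genes with a probe set of their own, the antigen-presenting chains had the widest gaps. H2-Ab1, the beta chain of I-A, was at 1.66 in FULA 1, 6.05 in the saline lung and 5.37 in the urethane lung (normalized log2), or percentile ranks 35.3, 95.02 and 92.3. The lungs lay close together and FULA 1 far below them. The difference was -4.39 from the saline lung and -3.71 from the urethane lung; since the FULA 1 value was below the background mark, the gene was lower by at least 4.09 and 3.41. H2-Aa, the alpha chain of I-A, was at 1.27 in FULA 1, 5.42 in the saline lung and 4.54 in the urethane lung, with ranks of 20.6, 92.6 and 87.6. It differed by -4.15 and -3.27 (lower by at least 3.46 and 2.58). H2-Eb1, the beta chain of I-E, was at 1.52 in FULA 1, 4.04 in the saline lung and 3.86 in the urethane lung, with ranks of 29.9, 83.4 and 81.5. It differed by -2.52 and -2.34 (lower by at least 2.08 and 1.90). On FULA 1 the deposited value of H2-Ab1 was shared by 101 other probe sets and that of H2-Eb1 by 87, while that of H2-Aa was shared by 0.

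The probe set shared by Cd74, the invariant chain, and Mir5107 followed the chains. It was at 2.63 in FULA 1, 7.97 in the saline lung and 7.67 in the urethane lung, with ranks of 63.4, 98.7 and 98.4. FULA 1 differed by -5.34 from the saline lung and -5.04 from the urethane lung, and all 3 values were above the mark. How much of this signal belongs to either gene cannot be told apart.

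The genes of peptide editing differed less. H2-DMa, the alpha chain of the H2-DM exchange factor, was at 2.17 in FULA 1, 2.81 in the saline lung and 3.79 in the urethane lung, with ranks of 52.5, 66.5 and 80.8. Here the urethane lung stood above the saline lung, and FULA 1 was -0.64 from the saline lung and -1.62 from the urethane lung. H2-DMb1, its beta chain, had ranks of 11.3, 32.3 and 18.3 in the same order and lay below the mark on all 3 arrays, so no size is given. H2-Oa, the alpha chain of H2-DO, which restrains H2-DM in B cells, was at 2.04, 2.68 and 2.71, with ranks of 48.7, 64.2 and 64.7; the lungs were level and FULA 1 was -0.64 and -0.67 from them. These H2-Oa values lay close above the marks of 1.96, 2.46 and 2.44, which limits the size of its differences. A second H2-Oa probe set, shared with BC051537, was below the mark on all 3 arrays.

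Ciita, the master regulator, was at 2.40 in FULA 1, 3.79 in the saline lung and 3.52 in the urethane lung, with ranks of 58.4, 80.8 and 77.6. Its value was above the mark on FULA 1 as well, as for 12913 of 22180 genes. Of 7 pan-leukocyte genes, Coro1a (2.58) and Cd53 (2.39) were above it there too, and 5 were below. The Ciita difference was -1.38 from the saline lung and -1.12 from the urethane lung. After the shift to a common median these became -0.62 and -0.48, under 2-fold. Its saline value was shared by 107 other probe sets. Ctss, cathepsin S, was at 1.60, 3.24 and 2.73, with ranks of 32.5, 73.9 and 65.0. It differed by -1.65 and -1.13, or lower by at least 1.28 and 0.77 with the mark as its FULA 1 value, so the second is 2-fold only without that bound.

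Over the 8 genes the median difference was -1.52 from the saline lung and -1.37 from the urethane lung, beside 0.02 and 0.07 over all genes past the threshold. Without H2-DMb1, the values from the saline lung ran from -4.39 to -0.64. On FULA 1, 5 of the 8 lay below the background mark (H2-Aa, H2-Ab1, H2-Eb1, H2-DMb1 and Ctss), against H2-DMb1 alone on each lung. Over all 22180 genes, the share below the mark was 41.8% for FULA 1, 50.5% for the saline lung and 51.1% for the urethane lung.

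**Figure D3:**
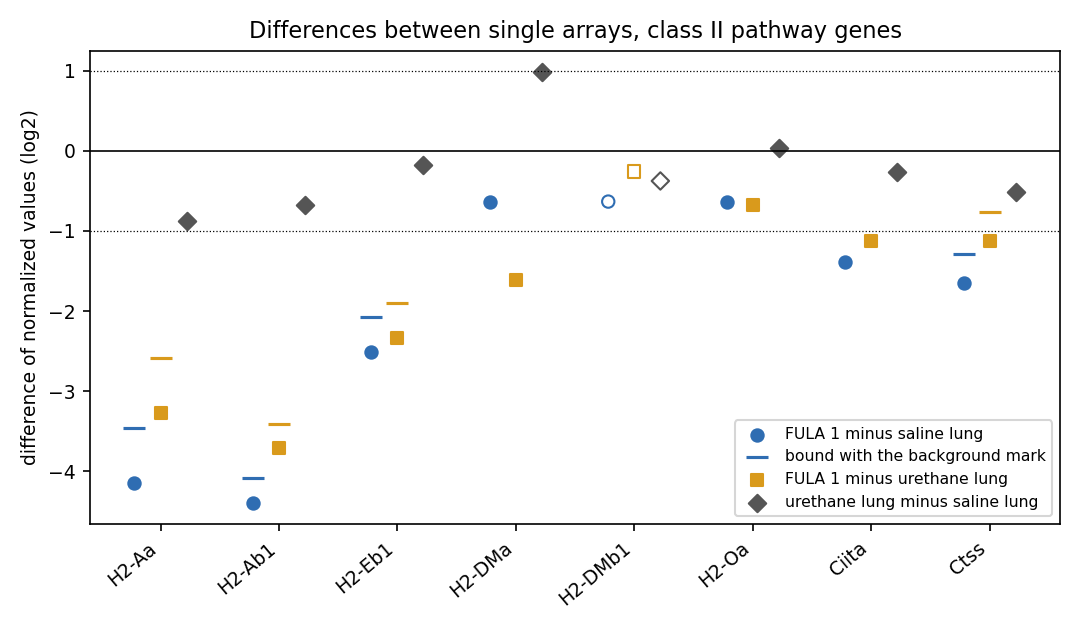
Difference in normalized log2 value between single arrays for the 8 genes, with dotted lines at 2-fold; short bars give the bound with the background mark in place of a lower value, and open symbols are values with both arrays below the mark. H2-Ab1 and H2-Aa are lowest, at -4.39 and -4.15 for FULA 1 minus saline lung, and no grey urethane minus saline point passes 2-fold.

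Between the lungs no class II gene was 2-fold apart: 0 of 8 were higher and 0 lower, where 3.27% of 12519 genes were higher and 1.31% lower. The median difference, urethane minus saline, was -0.32, beside -0.07 over all genes past the threshold. H2-Aa was at -0.88, H2-Ab1 at -0.68, Ctss at -0.52, Ciita at -0.26 and H2-Eb1 at -0.18, while H2-Oa was at 0.03. H2-DMa stood on the other side at 0.98, just under 2-fold (1.05 with the lowess curve and 1.43 with the FULA 1 quantiles, past it), and was 14.3 percentile points higher in the urethane lung. None of these signs turned under the shift to a common median or the lowess curve. The FULA 1 quantiles keep the rank order and so could not turn them. With the values as deposited, however, all 8 genes were higher in the urethane lung. The probe set of Cd74 and Mir5107 was at -0.30. The normalized values ran saline lung, urethane lung, FULA 1 from high to low in 5 of the 7 genes past the expression threshold on any array, an order also found in 27.2% of the 14101 genes past it; H2-DMa and H2-Oa departed from it. Whether a difference of this size lies within the spread between lungs could not be assessed with 1 array each.

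The other class II genes of the H2 region added 4 genes. From the saline lung, H2-DMb2, a second H2-DM beta chain that shares much sequence with H2-DMb1, was at -1.66 on FULA 1 (lower by at least 0.63). H2-Ea, the alpha chain gene of I-E, was at -0.89 (lower by at least 0.54). H2-Ob, the beta chain of H2-DO, and H2-Eb2 were below the mark on all 3 arrays, so no size is given. All 4 lay below the mark on FULA 1, as did 41.8% of all genes. At least 2-fold lower was 1 of 4 (2 of 4, with H2-Ea, under the common median), with 3 of the 4 past the expression threshold, beside 22.0% of all genes tested. Between the lungs 0 of 4 were 2-fold apart, though H2-DMb2 was 2-fold lower in the urethane lung with the FULA 1 quantiles. The values of H2-DMb1 and H2-DMb2 are uncertain because probes could be shared between such close copies.

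On chromosome 17 these genes form a run with genes of the class I pathway. From H2-Oa to H2-Eb2 RefSeq lists 14 protein-coding genes, all 14 measured, and 8 of them were at least 2-fold lower on FULA 1 than on the saline lung and 0 higher, where 22.0% of all genes tested were lower and 22.6% higher. Among the 8 were the members H2-Ab1, H2-Aa and H2-Eb1 at one end, H2-DMb2, and in the middle the 4 genes that make and carry class I peptides. These were Psmb9 at -2.61 and Psmb8 at -2.90, subunits of the immunoproteasome, and Tap1 at -1.80 and Tap2 at -1.99, the peptide transporter. Brd2, a chromatin reader that lies between H2-Oa and H2-DMa, was at -0.48. Of the 14, only Psmb8 was 2-fold apart between the lungs, at -1.06. With the FULA 1 quantiles H2-DMa and H2-DMb2 also passed 2-fold.

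**Figure D4:**
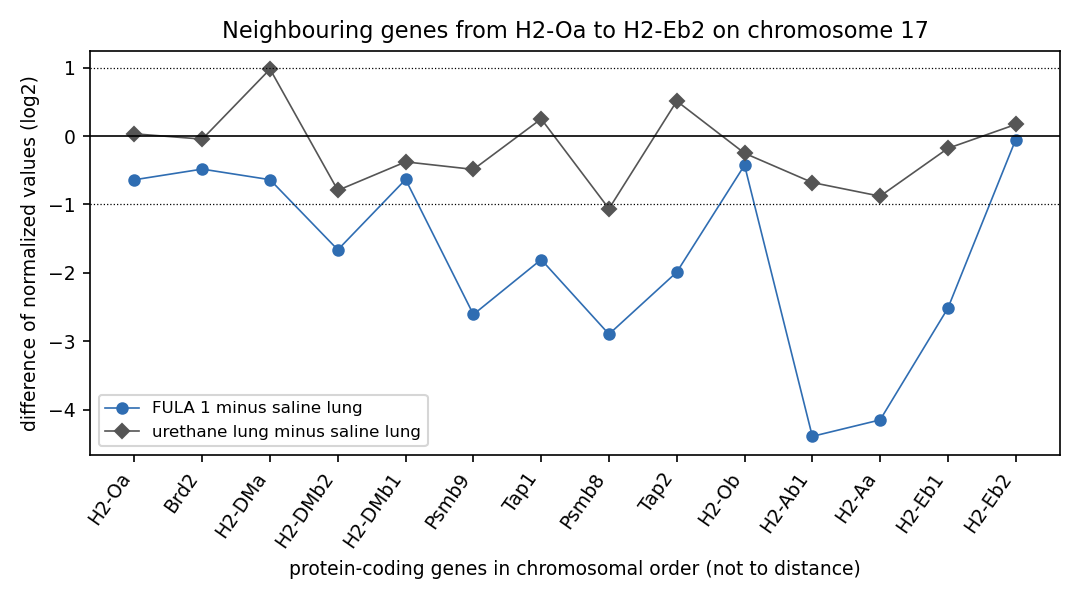
Difference in normalized log2 value for the 14 protein-coding genes from H2-Oa to H2-Eb2 in chromosomal order (horizontal axis, not to distance), for FULA 1 minus saline lung (blue) and urethane minus saline lung (grey). The blue points dip to -2.90 at Psmb8 and to -4.39 at H2-Ab1; those of H2-DMb1, H2-Ob and H2-Eb2 rest on values below the mark.

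Of 7 genes for factors that bind class II promoters, 2 were at least 2-fold higher on FULA 1 than on the saline lung and 0 lower, where 22.6% of all genes tested were higher. The higher genes numbered 6 with the common median and 1, Nfyb, with the lowess curve. Over all genes, the common median raised the higher count from 3073 to 7058. Nfyb was at 1.56 (higher by at least 1.30) and Nfyc at 1.10; both encode subunits of NF-Y, which binds the Y box. Rfx5, the DNA-binding RFX subunit, was at 0.07 and its partners Rfxap and Rfxank were at -0.11 and -0.63; the sign of Rfx5 turned with the lowess curve and those of Rfxap and Rfxank with the common median. The list's median was 0.07, but -0.02 with the lowess curve and 1.66 with the common median. From the urethane lung the median was 0.79, with Nfyb at 1.18 as the single gene past 2-fold, where 22.1% of all genes tested were higher. Between the lungs 0 of 7 were 2-fold apart, where 3.27% of all genes tested were higher and 1.31% lower. Nfya at -0.97 and Rfxap at -0.90 were the lowest. Both were 2-fold lower with the FULA 1 quantiles, which called 897 genes lower in all rather than 164.

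Of 7 measured genes in the path from interferon gamma to Ciita, 1 was 2-fold lower and 1 higher on FULA 1 than saline lung. The shares over all genes tested were 22.0% and 22.6%, and the list's median was 0.06. With the common median 3 were higher, where the higher count over all genes rose from 3073 to 7058. With the lowess curve 2 were lower. Irf1, the interferon-induced factor that acts on a Ciita promoter, was at 2.95 in FULA 1, 5.38 in the saline lung and 4.80 in the urethane lung, a difference of -2.43 and -1.85. The receptor chain Ifngr1 was higher by 1.36 from the saline lung, the kinase gene Jak2 was at 0.81, and Jak1 at -0.97, whose sign turned with the common median. Ifng itself lay below the mark on all 3 arrays. Between the lungs 0 of 7 were 2-fold apart. With the common median Jak1 and Jak2 were 2-fold lower in the urethane lung, as were 203 genes in all.

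Of 9 genes for other endosomal proteases and their inhibitors, 3 were at least 2-fold higher on FULA 1 than saline lung and 1 lower. The median was 0.41, and over all genes tested 22.6% were higher and 22.0% lower. The higher genes numbered 7 with the common median (list median 1.60) and 2 with the lowess curve (list median 0.10), which also left 0 lower. Over all genes, the common median raised the higher count from 3073 to 7058. Ctsl, cathepsin L, which cuts the invariant chain in thymic epithelium, was higher by 1.83, Ctsh by 1.61 and Ctsd by 1.21. Cst7, the cystatin F gene, was at -1.21 (lower by at least 0.97), and Ifi30, the thiol reductase of antigen processing, was at -0.05, a sign that turned with the common median. From the urethane lung Ctsl, at 2.03, was the 1 gene past 2-fold, where 22.1% of all genes tested were higher. Between the lungs Ctsd was the 1 gene past 2-fold, at 1.03, a call lost with the common median, and the list's median was 0.30. Over all genes tested, 3.27% were higher there. With the FULA 1 quantiles Cst7 was 2-fold lower and Ctsd was not past 2-fold.

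Among genes of class II traffic and invariant chain partners, 1 of 7 was 2-fold higher and 1 lower on FULA 1 than saline lung. The shares over all genes tested were 22.6% and 22.0%. With the common median 3 were higher, where the higher count over all genes rose from 3073 to 7058. Cd44, the signalling partner of surface CD74, was higher by 1.78, and Mif, the cytokine that binds CD74, was at 0.62. Cd83, which keeps class II at the surface, was at -1.71 (lower by at least 1.56). Marchf1, the ligase that removes class II, was below the mark on all 3 arrays. Between the lungs 0 of 7 were 2-fold apart, with Mif lowest at -0.99, which passed 2-fold with the common median (-1.18).

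**Figure D5:**
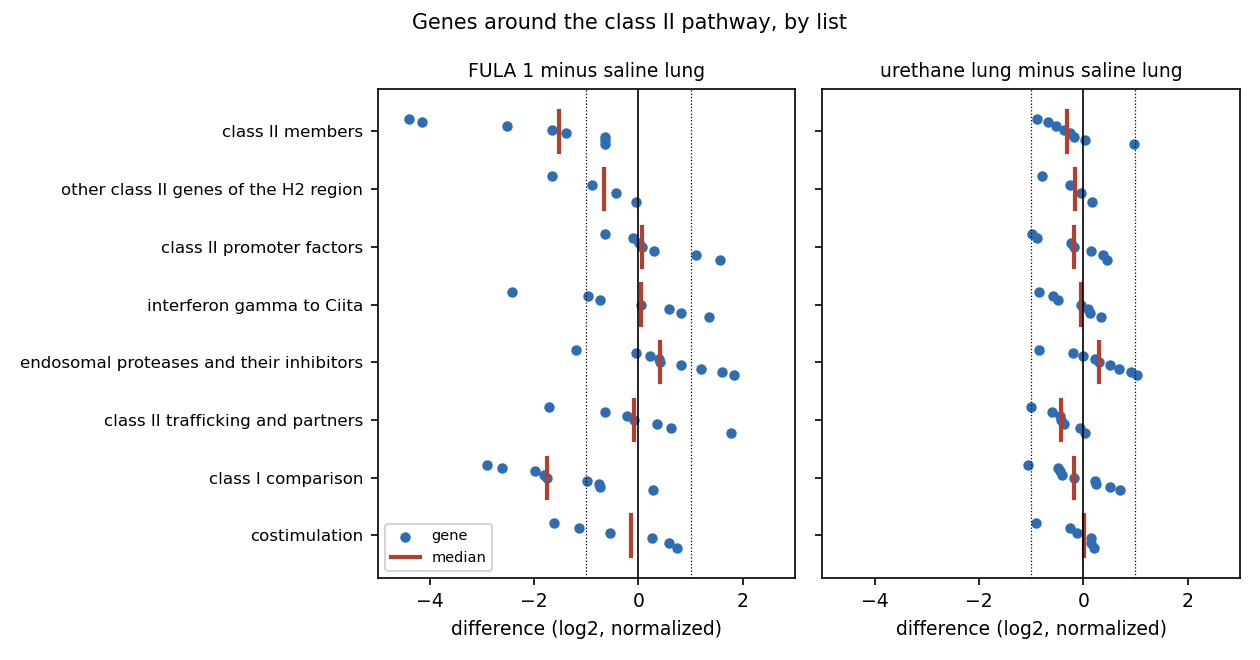
Difference in normalized log2 value per gene (blue) and list median (red) for 8 gene lists, left for FULA 1 minus saline lung and right for urethane minus saline lung, with dotted lines at 2-fold. On the left the class II members (median -1.52) and the class I list (median -1.74) lie below the other lists.

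The class I list, for comparison, had 5 of 9 measured genes at least 2-fold lower on FULA 1 than saline lung and 0 higher. The median was -1.74, and over all genes tested 22.0% were lower and 22.6% higher. With the common median the count was again 5, with B2m in place of H2-K1. Beside the 4 genes of the chromosomal run it held H2-K1, a classical class I heavy chain, at -1.74 (-0.41 with the common median), while B2m, the shared light chain, was at -0.98 (-2.30 with the common median) with ranks of 99.6 on FULA 1 and 99.8 on saline lung. Nlrc5, the class I counterpart of Ciita, was below the mark on all 3 arrays. H2-D1 was not analysed here.

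Pan-leukocyte and B cell markers were lower on FULA 1 together with these genes, and their part in the differences was not tested. Over all genes tested, 22.0% were at least 2-fold lower on FULA 1 than on the saline lung and 22.6% higher. Of 7 pan-leukocyte genes, 7 were at least 2-fold lower than on the saline lung (median -1.80), with Tyrobp lower by at least 3.48, Fcer1g by at least 2.98 and Ptprc, the gene of CD45, by at least 1.10, and Cd53 at -1.26; with the common median Cd53 was at -0.50 and 6 of 7 were 2-fold lower. Their summed linear normalized signal was 28.1 in FULA 1, 137 in the saline lung and 107 in the urethane lung, beside 27.3, 165 and 120 in the same order for the 8 class II genes. On FULA 1, Ptprc, Laptm5, Cd52, Tyrobp and Fcer1g lay below the mark, as did 41.8% of all genes. Of 7 B cell genes 5 were lower (median -1.06), among them Pax5 (lower by at least 1.41), but 2 of 7 with the lowess curve (Pax5 and Fcmr), and Cd79a and Ms4a1 were below the mark on all 3 arrays. The B cell signal summed to 22.5 for FULA 1, 47.7 for the saline lung and 43.2 for the urethane lung. FULA 1 is a cultured line, whereas each lung array is a bulk sample of lung cells. In such bulk samples, fewer cells of a type and less RNA per cell cannot be told apart.

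Dendritic cell genes gave little signal on the lungs: 7 of 8 were below the mark on saline lung and 5 of 8 on urethane lung. Over all genes 50.5% and 51.1% were below it. Of the 8, 1 was at least 2-fold lower on FULA 1 than on the saline lung, Cd209a at -2.53. Beside this count and those of the next lists, 22.0% of all genes tested were lower and 22.6% higher. That share covers genes past the expression threshold only. Past it in this comparison were 3 of the 8 dendritic, 7 of 8 alveolar macrophage and 6 of 9 monocyte and interstitial macrophage genes. The summed signal of the list was 37.0 in FULA 1, 80.4 in the saline lung and 107 in the urethane lung, most of it on the lungs from Cd209a alone. Without that gene the sums were 27.5, 25.9 and 34.2. Cd209a is the mean of 2 probe sets that lay apart. On the saline lung its mean value was 5.77 and its mean rank 79.2, where Lamp3, with 1 probe set at 5.78, ranked 94.1. Of 8 alveolar macrophage genes 2 were lower and 1 higher, with Chil3 at -2.03, Marco at -1.18 (lower by at least 1.13) and Mrc1 higher by 2.96 (at least 2.77); the sum was 117, 104 and 106. With the common median 4 alveolar macrophage genes were higher and 2 lower, where 7058 genes in all were higher and 1785 lower. Of 9 monocyte and interstitial macrophage genes 4 were lower and 1 higher, with Ly6c2 at -2.36 (lower by at least 1.51), C1qb at -1.91 and Cd14 higher by 1.73; the sum was 55.6, 76.7 and 61.3. Alveolar type II genes were lower in 9 of 10, with a median of -4.67, from Sftpc at -8.83 to Abca3 at 0.78, and summed to 54.3 in FULA 1, 3510 in the saline lung and 4141 in the urethane lung.

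Marker genes of endothelial, alveolar type I and epithelial cells differed too. Over all genes tested, 22.0% were at least 2-fold lower on FULA 1 than on the saline lung and 22.6% higher. Of 7 endothelial genes 6 were lower on FULA 1 than on the saline lung (median -4.36), with Cdh5 at -5.45 and Pecam1 at -4.36. Of 6 alveolar type I genes 4 were lower and 1 higher (median -3.13), with Ager at -5.21 and Aqp5 higher by 2.49. Of 6 epithelial genes 3 were higher and 1 lower (median 1.01), with Krt8 higher by 4.84 and Cldn7 at -2.23; Epcam was at -0.51, a sign that turned with the common median.

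Between the lungs, where 0 of 8 class II genes were 2-fold apart, the pan-leukocyte genes had a median of -0.29 with 1 of 7 lower (Fcer1g at -1.16). Over all genes tested, 3.27% were higher and 1.31% lower. B cell genes had a median of -0.07 with 1 of 7 lower (Blk at -1.08, lower by at least 0.56, a call lost with the common median). Dendritic cell genes had a median of 0.31 (-0.02 with values held at the mark, since 5 of 8 were below it on both lungs) with 0 of 8 counted as 2-fold apart. Batf3 was at 1.37, but it was below the mark on both lungs and under the expression threshold, which 4 of the 8 reached. Alveolar macrophage genes had a median of -0.17 with 0 of 8 past 2-fold. Monocyte and interstitial macrophage genes had a median of -0.14 with 1 of 9 lower (Ly6c2 at -1.23, lower by at least 1.03, a call also lost with the common median). Alveolar type II genes had a median of 0.28 with 1 of 10 higher (Abca3 at 2.23), a median that became -0.43 with the common median. Other scalings also added calls to these lists. Itgax was 2-fold higher in the urethane lung with the lowess curve, and Itgax, Ccr7 and Mrc1 were with the FULA 1 quantiles. Cd52 was 2-fold lower with the FULA 1 quantiles, and Lyz2 with the common median.

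The genes whose values were nearest to the mean of H2-Aa, H2-Ab1 and H2-Eb1 over the 3 arrays (1.48 in FULA 1, 5.17 in the saline lung and 4.59 in the urethane lung), by Euclidean distance of normalized log2 values, were Ccdc85a (0.21), Cxcl12 (0.25), Clec1a (0.25), S100a8 (0.32) and Gsta3 (0.33). Cxcl12 encodes a chemokine of stromal cells, Clec1a a C-type lectin-like receptor, S100a8 a calcium-binding protein of neutrophils and Gsta3 a glutathione transferase. S100a8, the last but one, was at 1.41 in FULA 1, 5.26 in the saline lung and 4.29 in the urethane lung. Likeness over 3 arrays is a description only.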

How the data were processed

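Per the labels' protocols, total RNA was fragmented and biotin-labelled, and 1 array was run for each of FULA 1, saline lung and urethane lung. The authors deposited 1 log2 signal for each of 41345 probe sets on every array. The submitters' processing notes name RMA; per the series' design text the software was GeneSpring GX 12.5. Background setting and array build: not given in the sources used here. Scale and centring stay unknown; columns of other samples: 0. Probe sets with 1 symbol (23521) were named through the platform annotation and updated by Entrez identifier (23328 matched); 1814 with several symbols named no gene, and 16010 were unnamed here. Genes with several probe sets took their mean. Arrays were quantile-normalized to the mean of the 3 sorted columns (ties at mean rank), with numpy 2.4.6, pandas 2.3.3 and scipy 1.17.1. A check of this step on simulated data covered signs and ranks, not the sizes of differences. It altered far fewer probe sets than differ between FULA 1 and the lungs. Members, lists, the background mark and the scaling were chosen with earlier results of these data known. Named were all members with a signal, the 2 highest and 2 lowest of most lists by FULA 1 minus saline lung, and the 5 nearest genes, whose reference mean leaves out Cd74 for want of a probe set of its own; some list genes are not reported for room. Settings tried were other scalings, an offset of 32, thresholds of 1.5-fold and 4-fold, no expression threshold and one at the 75th percentile, values held at the mark, and the shared probe sets counted. The number of arrays limits the precision.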

Additional observations from a re-analysis of the deposited data

How the results depend on the processing

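As deposited, values reversed the FULA 1 comparisons. The median over the 8 genes became 3.15 from the saline lung, 2.27 from the urethane lung and 0.96 between the lungs, and 6, 6 and 3 genes were at least 2-fold higher with 0 lower in all 3. From the saline lung H2-Aa was then at 0.53, H2-Ab1 at 0.51, H2-Eb1 at 2.50, Ciita at 4.27 and Ctss at 3.29; from the urethane lung H2-Aa was at 0.29, H2-Ab1 at 0.30, H2-Eb1 at 1.41, H2-DMa at 2.63, Ciita at 3.27 and Ctss at 2.44. The deposited columns differ by 4.80 (FULA 1 and saline lung), 3.69 (FULA 1 and urethane lung) and 1.09 (the lungs) in the median over all genes. With the FULA 1 quantiles the medians were -2.45 and -2.25, and 1 gene, H2-DMa, was 2-fold higher in the urethane lung than in the saline lung, as with the lowess curve (1). An offset of 32, which compresses low values, left medians of -0.27 and -0.28 with 2 and 1 genes lower. At 4-fold 3 genes were lower in each FULA 1 comparison; at 1.5-fold 1 gene was higher and 2 lower in the urethane lung. Of the 24 differences of single genes (8 genes in 3 comparisons), the lowess curve moved none by more than 1.5-fold, the common median 4, the FULA 1 quantiles 12, the offset 13 and the mark 2. Counting the shared probe sets gave 6 and 7 lower. Ranks give no 2-fold count, and each gene had 1 probe set of its own, so neither alternative was run for those. Holding values at the mark, counting the shared probe sets and counting calls in the other lists under each scaling were chosen after seeing the data. No paired analysis was possible because there was 1 array per group. Signal near background limits H2-DMb1 and H2-Oa throughout and the size of each difference with FULA 1 below the mark.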

Other observations

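Of 5 measured genes on the T cell side of class II recognition, 3 were above the background mark on each lung and 2 on FULA 1. Cd4, the coreceptor that binds class II, was below the background mark on all 3 arrays. Of the 5 genes 2 were at least 2-fold lower on FULA 1 than on the saline lung, Cd3e at -1.37 (lower by at least 1.13) and Cd5 at -1.37 (-0.64 with the common median, under 2-fold), and 0 of 5 were 2-fold apart between the lungs. The expression threshold was passed by 3 of the 5 in the comparison of FULA 1 with the saline lung. Over all genes tested, which are those past it, 22.0% were at least 2-fold lower on FULA 1 than on the saline lung. Lag3, an inhibitory receptor for class II, was at -0.49, and Cd28 was below the mark on both of these arrays.

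Of 6 costimulatory genes, which accompany class II on antigen-presenting cells, 2 were at least 2-fold lower on FULA 1 than on the saline lung and 0 higher: Cd274, the gene of PD-L1, at -1.63 and Icosl at -1.13. Both calls were lost with the common median (-0.77 and -0.47). The expression threshold was passed by 3 of the 6 in this comparison. Over all genes tested, which are those past it, 22.0% were at least 2-fold lower and 22.6% higher. Cd80 and Cd86 were below the mark on all 3 arrays. Cd40 and Pdcd1lg2, the gene of PD-L2, were above the mark on FULA 1 and below it on both lungs, and neither was 2-fold apart. With the FULA 1 quantiles, however, Cd40 was 2-fold higher on FULA 1 than on the saline lung. Between the lungs 0 of 6 were 2-fold apart, with Cd274 lowest at -0.90, which passed 2-fold with the FULA 1 quantiles.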
